A study of Mus musculus with 4 samples.

Results

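The axon guidance ligands and receptors were 70 of the 31053 gene rows in the count tables of adult mouse brain nuclei. They were chosen by symbol alone: the semaphorins (Sema3 to Sema7), plexins, neuropilins, ephrins, Eph receptors, Slits, Robos, netrins, netrin-Gs, Dcc and the Unc5 receptors. The rule uses no measured value. Libraries came from whole brains of 2-month-old female C57BL/6 mice, 2 WT and 2 carrying 1 inactivated Csf1r allele (Csf1r+/-, written HET). Heterozygosity for Csf1r, the growth factor receptor on which microglia depend, models an adult-onset leukoencephalopathy, and the mice were sampled before symptoms. Each library is 1 mouse, the allele is germline and so present in every cell, and the p-values below measure the spread between 2 mice per genotype. The other mouse of each genotype was not used here.

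Guidance cues steer growing axons by attraction or repulsion. Netrins act through Dcc and Unc5 receptors, Slits through Robos, class 3 semaphorins through neuropilin and plexin complexes, and ephrins through Eph receptors at cell contacts. In the adult brain many of these genes stay on, where they are known for roles at synapses, in vessels and in myelinating cells.

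The 4 libraries kept 9589 to 16114 nuclei each after filtering (500 to 50000 UMIs, more than 200 genes, under 5% mitochondrial UMIs), 52132 in all, and their median depth ran from 4636 to 7454 UMIs per nucleus, higher in both HET libraries than in both WT libraries. A UMI is a unique molecular identifier, so it counts 1 captured RNA molecule. Pairs of libraries shared 35 to 75 cell barcodes, at most 0.484% of the smaller library. Clusters were built without the members, and 40 classes with at least 10 nuclei in every library were described: 35 neuron subtypes, microglia (695 nuclei), oligodendrocytes (1853), endothelial cells (567), mural cells (217) and a group of 505 nuclei called Enpp6 and Anln glia after its leading genes. Subtypes without a marker-based name are called by 2 leading genes, and 1 of them, the Otx2os1 and Ebf3 mixed neurons, holds cells with glutamate and with GABA markers. WT2 held 1107 of the oligodendrocytes, against 206 to 312 in the other libraries. No astrocyte class could be named.

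Csf1r itself, the targeted gene, was counted 201 and 209 times in WT and 158 and 122 times in HET microglia. Both HET libraries were below both WT libraries, and the log2 fold change was -0.65 (SE 0.21, adjusted p = 0.570, edgeR quasi-likelihood test), which did not pass the study's threshold of p under 0.01.

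Most guidance genes were uneven across the brain's cell classes. Levels are CPM, a gene's UMIs scaled to a fixed total of all UMIs in the class, averaged over the 4 libraries with equal weight. They are compared for 1 gene across classes, not between genes. Of the 70 members, 42 reached at least 20 CPM in their highest class and at least 3 times their median over the 40 classes, and 33 reached 5 times. By family these were 9 of 14 Eph receptors, 10 of 20 semaphorins, 5 of 9 plexins, 2 of 8 ephrins, 3 of 4 Robos, all 3 Slits, 3 of 4 Unc5 receptors, both neuropilins, 2 of 3 netrins, both netrin-Gs and Dcc. Another 14 members, 5 ephrins and 4 semaphorins among them, stayed below 20 CPM in every class. In 15 of the 42 the lowest library of the highest class was above the highest library of the next class, so for the other 27 the order of the leading classes lies within the spread of libraries. The classes were drawn from these nuclei, so the levels are descriptions without a test.

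**Figure D1:**
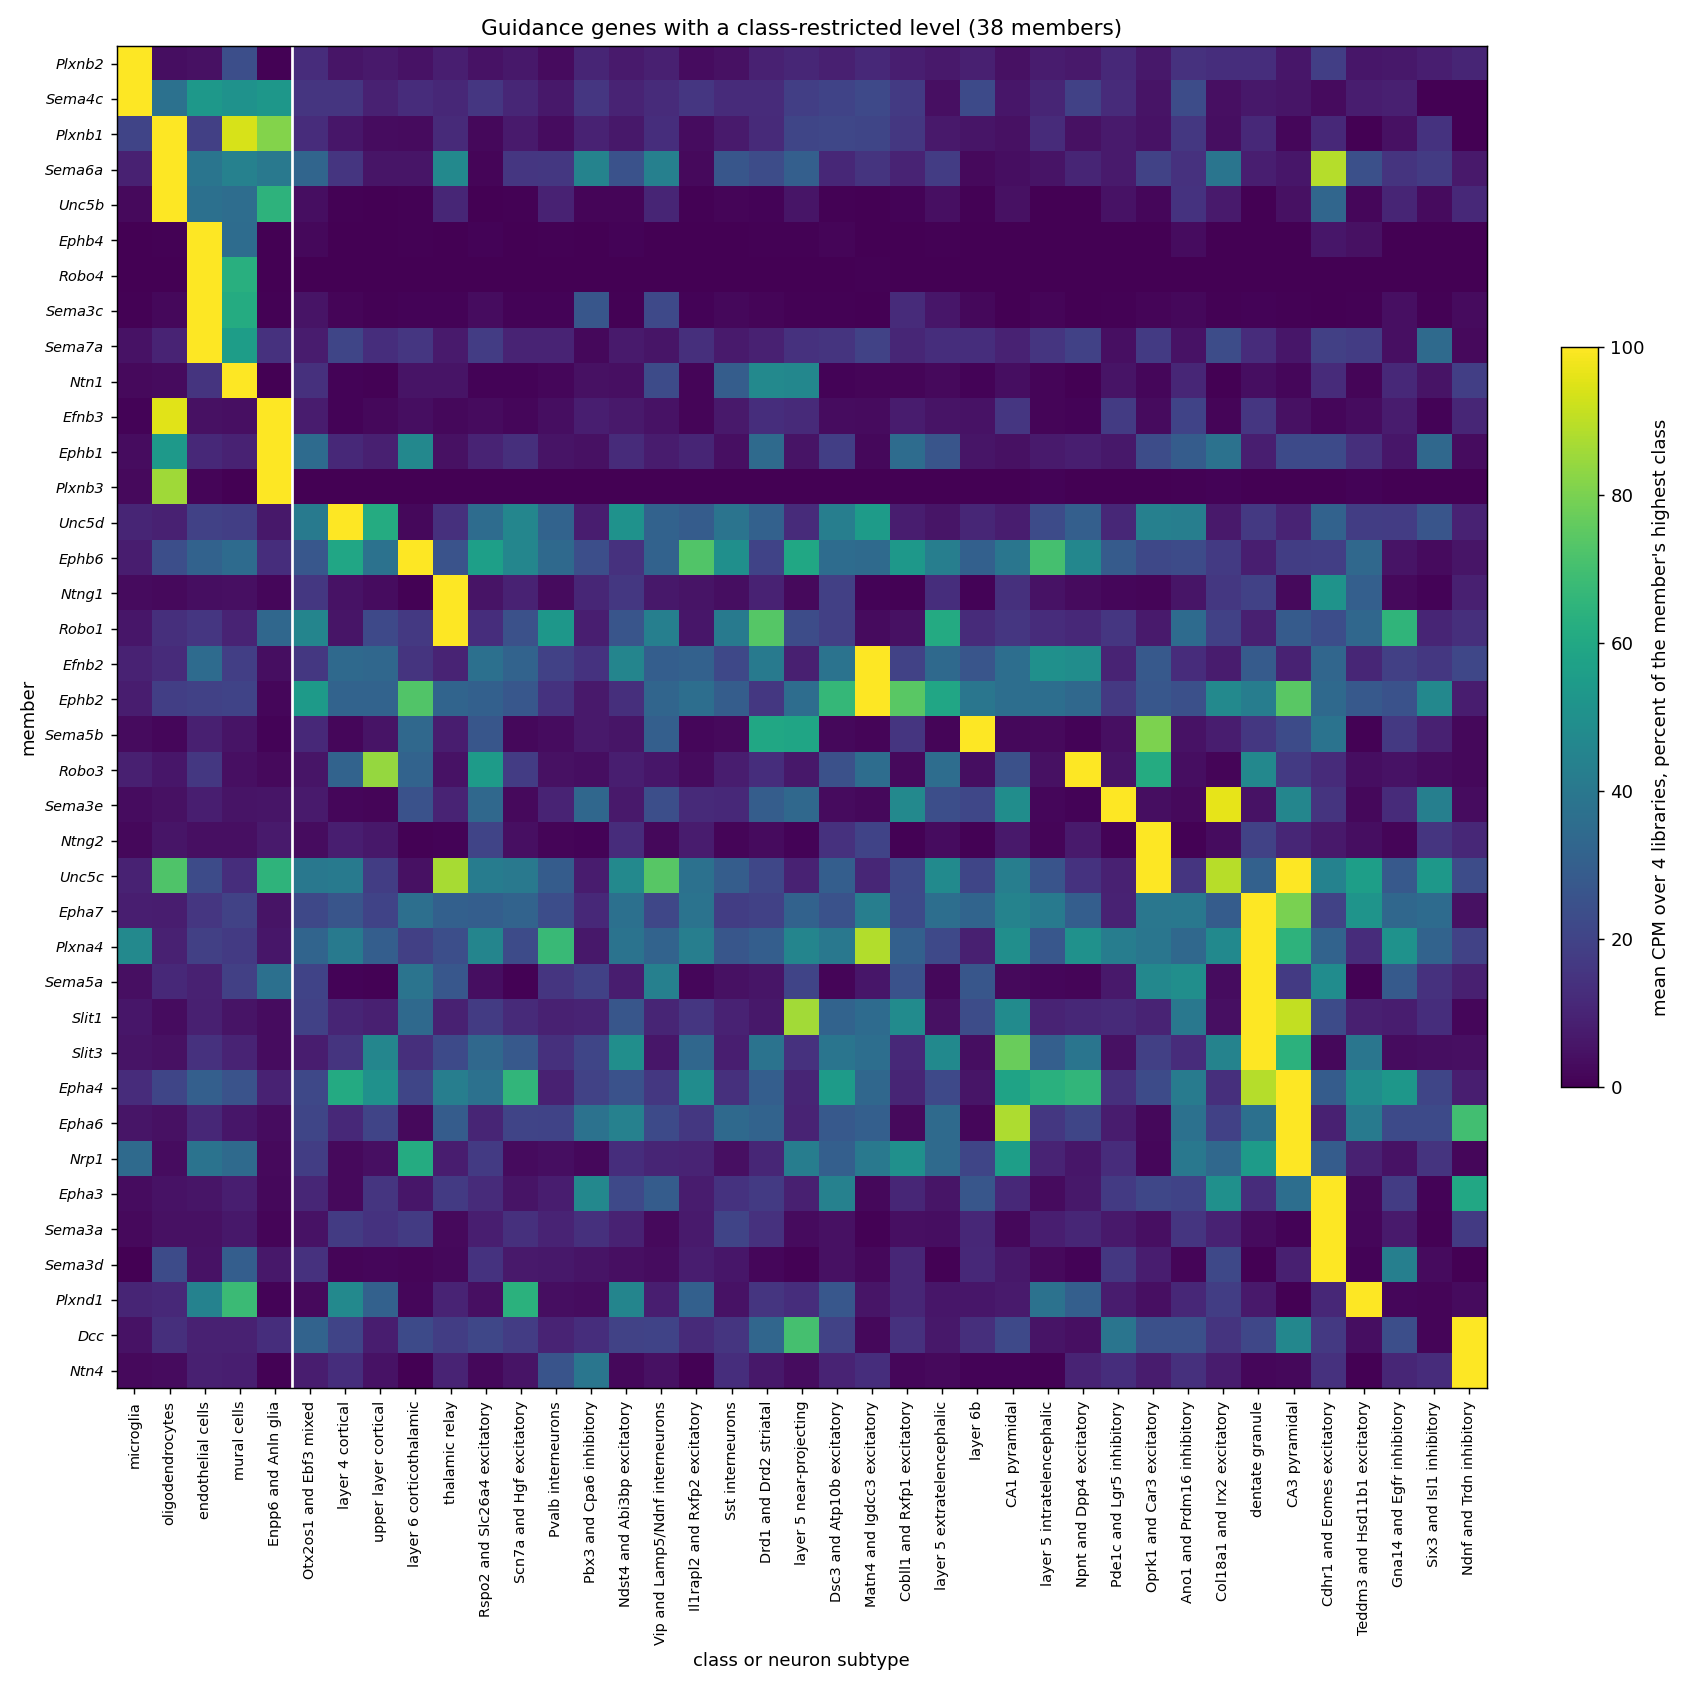
Heat map of 38 of the class-restricted members (rows) over 39 classes (columns, glial and vascular classes left of the white line); colour is the mean CPM of 4 libraries as a percentage of the member's own highest class. Rows such as Robo4 and Plxnb3 are bright only in vascular or oligodendrocyte-like columns, while Ntng1 is brightest in thalamic relay neurons and Ntng2 in Oprk1 and Car3 excitatory neurons.

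The netrin-Gs are membrane-anchored relatives of the netrins that bind postsynaptic partners of the Lrrc4 family. Ntng1 (ENSMUSG00000059857, mm10 chromosome 3, 109780040 to 110144011) stood at 3714, 3689, 3525 and 4140 CPM in thalamic relay neurons of WT1, WT2, HET1 and HET2, which was 20.5 times its median over classes. All 4 libraries were above the highest of the next class, Cdhr1 and Eomes excitatory neurons, at a mean of 1939 CPM. Its lowest class was layer 6 corticothalamic neurons, at a mean of 23.8 CPM. Ntng2 (chromosome 2, 29194541 to 29253005) peaked elsewhere, at 617, 680, 743 and 573 CPM in Oprk1 and Car3 excitatory neurons, 25.6 times its median and above every library of the next class, Rspo2 and Slc26a4 excitatory neurons (mean 133 CPM). Each gene was low where the other peaked. In thalamic relay neurons Ntng2 averaged 6.93 CPM, and in Oprk1 and Car3 neurons Ntng1 averaged 50.5 CPM. The netrin-G1 partner Lrrc4c was highest in Six3 and Isl1 inhibitory neurons (mean 9438 CPM) and averaged 1457 CPM in thalamic relay neurons, below its median over classes of 1801. Lrrc4, the netrin-G2 partner, was more even, from 56.9 CPM in mural cells to 215 CPM in Pvalb interneurons.

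**Figure D2:**
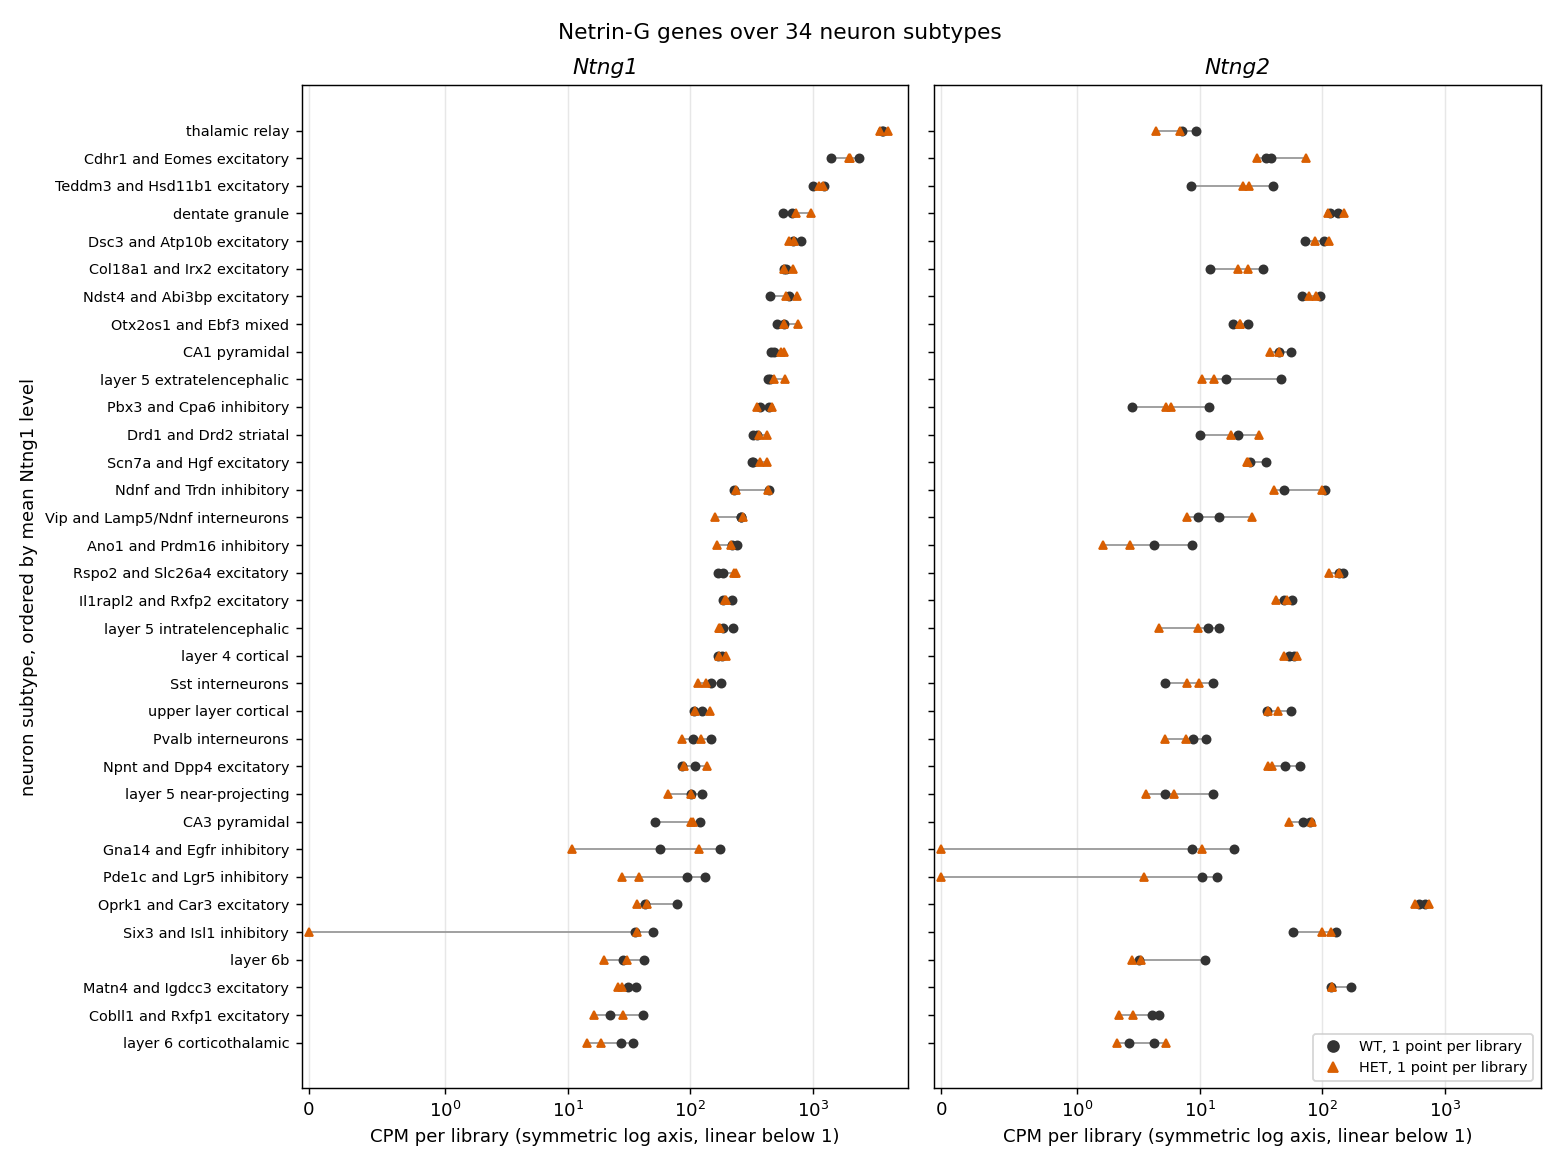
CPM of Ntng1 (left) and Ntng2 (right) in each library for 34 neuron subtypes, ordered by mean Ntng1 level, on symmetric log axes; circles are WT and triangles HET libraries and the line joins the lowest and highest. Ntng1 spans 23.8 to 3767 CPM on average, and the Ntng2 peak in Oprk1 and Car3 excitatory neurons falls among the lower Ntng1 subtypes.

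Among the secreted netrins, Ntn4 was highest in Ndnf and Trdn inhibitory neurons (mean 249 CPM, 114 to 341 over libraries) and next in Pbx3 and Cpa6 inhibitory neurons (97.1 CPM). Ntn1, the founding netrin, led in mural cells and reached 36.5 CPM in the Drd1 and Drd2 striatal projection neurons and 35.9 CPM in layer 5 near-projecting neurons. Dcc, the Ntn1 receptor, was counted in every class. Dcc stood at 7228, 4502, 6329 and 6584 CPM in Ndnf and Trdn inhibitory neurons, 5.83 times its median, and at 3854 to 4724 CPM in layer 5 near-projecting neurons, so the ranges of the 2 leading subtypes overlapped. The Unc5 receptors, which turn the netrin response to repulsion, had peaks of their own. Unc5d (chromosome 8, 28646717 to 29219636) was highest in layer 4 neurons, at 2907, 2373, 2656 and 3507 CPM, and second in upper layer neurons (mean 1763 CPM). It was lowest in layer 6 corticothalamic neurons, at 59.4 CPM. Unc5c led in Oprk1 and Car3 excitatory (1985 CPM) and CA3 pyramidal neurons (1980 CPM), whose libraries overlapped, and it too was lowest in layer 6 corticothalamic neurons (89.6 CPM). Unc5a did not pass the limit of 3 times the median, with its highest level in dentate granule neurons (57.0 CPM). Unc5b peaked in oligodendrocytes.

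The 3 Slits, secreted repellents, were all prominent in the hippocampus. Slit3 (chromosome 11, 35121224 to 35708507) was highest in dentate granule neurons, at 2321, 1998, 1857 and 2413 CPM, and followed in CA1 (mean 1656 CPM) and CA3 pyramidal neurons (1379 CPM). The dentate libraries all exceeded those of CA1. Slit1 had near-equal means in dentate granule (356 CPM), CA3 (324 CPM) and layer 5 near-projecting neurons (307 CPM), with overlapping libraries. Slit2 averaged 757 CPM in Pvalb interneurons (684 to 844 over libraries) and 606 CPM in CA3 pyramidal neurons. The receptor Robo1 (chromosome 16, 72308306 to 73046095) was highest in thalamic relay neurons, at 3717, 3994, 3726 and 4351 CPM, 5.64 times its median and above all libraries of the striatal projection neurons that came next (mean 2901 CPM). In dentate granule neurons, where Slit3 and Slit1 were highest, Robo1 averaged 346 CPM, below its median of 699. Robo2 was spread more evenly, with its highest mean in Ndnf and Trdn inhibitory neurons (1782 CPM) at 2.32 times the median. Robo3, best known from commissural axons, was confined to few subtypes, with means of 87.6 CPM in Npnt and Dpp4 excitatory, 73.7 in upper layer and 53.7 in Oprk1 and Car3 excitatory neurons and 11 of 40 classes at 20 CPM or more.

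Class 3 semaphorins are secreted and bind neuropilins, with plexins as the signalling subunits, except Sema3e, which binds Plxnd1 directly. Sema3a was highest in Cdhr1 and Eomes excitatory neurons, at 926, 574, 845 and 698 CPM, above every library of the next class, Sst interneurons (mean 156 CPM). Sema3d led in the same Cdhr1 and Eomes subtype (mean 112 CPM), but its libraries ranged from 40.2 to 202 CPM. Sema3e led jointly in Pde1c and Lgr5 inhibitory (mean 587 CPM, 476 to 904) and Col18a1 and Irx2 excitatory neurons (565 CPM, 480 to 621). Its receptor Plxnd1 averaged 5.04 CPM in the first of these and was highest in Teddm3 and Hsd11b1 excitatory neurons, at 68.4, 68.2, 67.6 and 63.9 CPM. Nrp1 was highest in CA3 pyramidal neurons (663 CPM), and Nrp2 averaged 243 CPM in Cdhr1 and Eomes excitatory and 175 CPM in CA3 pyramidal neurons. The Sema3a signalling subunit Plxna4 led in dentate granule neurons (1216 CPM), at 3.12 times its median.

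The membrane-bound semaphorins had other peaks. Sema5a (chromosome 15, 32244810 to 32696341) stood at 734, 580, 736 and 653 CPM in dentate granule neurons, 11.1 times its median and above all libraries of the next subtype. Sema5b was highest in layer 6b neurons (198 CPM), followed by Oprk1 and Car3 (159 CPM) and striatal projection neurons (117 CPM). Sema6d was broad, at 2.36 times its median in Sst interneurons (899 CPM), as was Plxna2, the Sema6a receptor, at 2.24 times in layer 6 corticothalamic neurons (425 CPM). Plxnc1, the Sema7a receptor, was highest in Pvalb interneurons (109 CPM), also under the limit. Sema4a reached at most 44.2 CPM, in layer 6 corticothalamic neurons.

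Eph receptors are tyrosine kinases bound by ephrins on neighbouring cells. Hippocampal subtypes led for 3 of the A class. Epha6 (chromosome 16, 59653483 to 60605531) stood at 5910, 4192, 4802 and 4630 CPM in CA3 and at 3828, 4308, 4533 and 4458 CPM in CA1 pyramidal neurons, so CA3 and CA1 overlapped. Epha7 was highest in dentate granule neurons (974 CPM, 931 to 1013 over libraries) and Epha4 in CA3 (656 CPM) and dentate granule neurons (583 CPM). Epha3 was highest in Cdhr1 and Eomes excitatory neurons (mean 1189 CPM), 8.96 times its median. Epha5 and its ligand Efna5 missed the limit, with highest means of 2144 CPM in Pbx3 and Cpa6 inhibitory and 1043 CPM in layer 4 neurons. Efnb2 and its receptor Ephb2 shared their highest class, Matn4 and Igdcc3 excitatory neurons, at means of 162 and 155 CPM. There Efnb2 was above every library of the next class, and Ephb2 was not. Ephb6 (36.8 CPM, layer 6 corticothalamic) was low but restricted.

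In glial and vascular nuclei, transcripts that neurons make were counted as well. To set that background, the level of each of 6 pan-neuronal markers in a class was taken as a percentage of its level in neurons of the same library. The median of these shares was 13.2 to 29.0% in microglia, 14.3 to 29.5% in oligodendrocytes, 42.02 to 69.3% in endothelial cells and 34.3 to 49.5% in mural cells over libraries. Median depth in these classes ran from 1120 UMIs in WT1 microglia to 3553 in HET1 mural cells, against 3793 to 9285 in inhibitory and excitatory neurons. A member was taken to be above background only where its share of the neuron level exceeded that of every pan-neuronal marker in all 4 libraries. For a member that misses this strict rule, a level of its own in the class was not separated from neuronal RNA.

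In microglia 7 of 36 members with at least 10 UMIs were above it: Plxnb2, Sema4d, Sema4b, Sema4c, Nrp1, Nrp2 and Plxna4. Plxnb2 (chromosome 15, 89155549 to 89180788), a receptor for class 4 semaphorins, stood at 97.5, 78.0, 122 and 102 CPM, 8.67 to 16.6 times its level in neurons and above every library of mural cells, the next class. Sema4d, a membrane semaphorin of immune cells, was at 146, 164, 133 and 115 CPM in microglia, 2.40 to 3.04 times the neuron level. Oligodendrocytes held it nearly as high (117 CPM), and its receptor Plxnb1 was highest in oligodendrocytes (24.2 CPM) and mural cells (22.7 CPM).

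Oligodendrocytes had 21 of 56 such members. Plxnb3 (chromosome X, 73757090 to 73772514) was at 89.0, 116, 78.7 and 92.1 CPM, at least 213 times its level in neurons, and at a mean of 110 CPM in the Enpp6 and Anln glia. Unc5b followed at 82.2, 75.6, 99.4 and 89.8 CPM, and the ephrin Efnb3 at 103, 98.9, 97.9 and 134 CPM. Each of these 3 was at least 14.0 times its neuron level in every library. Sema6a, a transmembrane semaphorin, was highest in oligodendrocytes (408 CPM) but also high in Cdhr1 and Eomes neurons (363 CPM). The tyrosine kinase Ephb1 separated the 2 oligodendrocyte-lineage groups, at 838, 786, 770 and 837 CPM in Enpp6 and Anln glia and 357 to 558 CPM in oligodendrocytes, ranges that did not overlap. Unc5c stood at 1.64 to 2.58 times its neuron level in oligodendrocytes. Oligodendrocyte precursors had 20, 113, 16 and 7 nuclei and enter no comparison. In their pooled counts Sema3d reached 249 CPM on 148 UMIs, 106 of them from WT2, and Ntn1 128 CPM on 76 UMIs.

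Endothelial cells had 16 of 54 and mural cells 15 of 47 members above background. Sema3c (chromosome 5, 17574281 to 17730268), a semaphorin of vessels, was at 393, 435, 674 and 795 CPM in endothelial cells, at least 24.4 times its neuron level. Robo4, the endothelial Robo (chromosome 9, 37401897 to 37415115), was at 63.4, 33.3, 65.6 and 125 CPM, and averaged 0.0910 CPM in neurons. Ephb4, known from venous endothelium, averaged 23.0 CPM there and Sema7a 164 CPM. Ntn1 was the one restricted member whose highest class was mural cells, at 85.0, 55.3, 56.8 and 112 CPM, 8.43 to 22.7 times its neuron level and above all 4 libraries of the striatal neurons. Mural nuclei also held the endothelial marker Flt1 at 1534 to 2294 CPM, close to the 1746 to 3383 CPM of endothelial cells, and the part of endothelial RNA in the mural values of Sema3c, Robo4 and Sema7a was not tested.

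**Figure D3:**
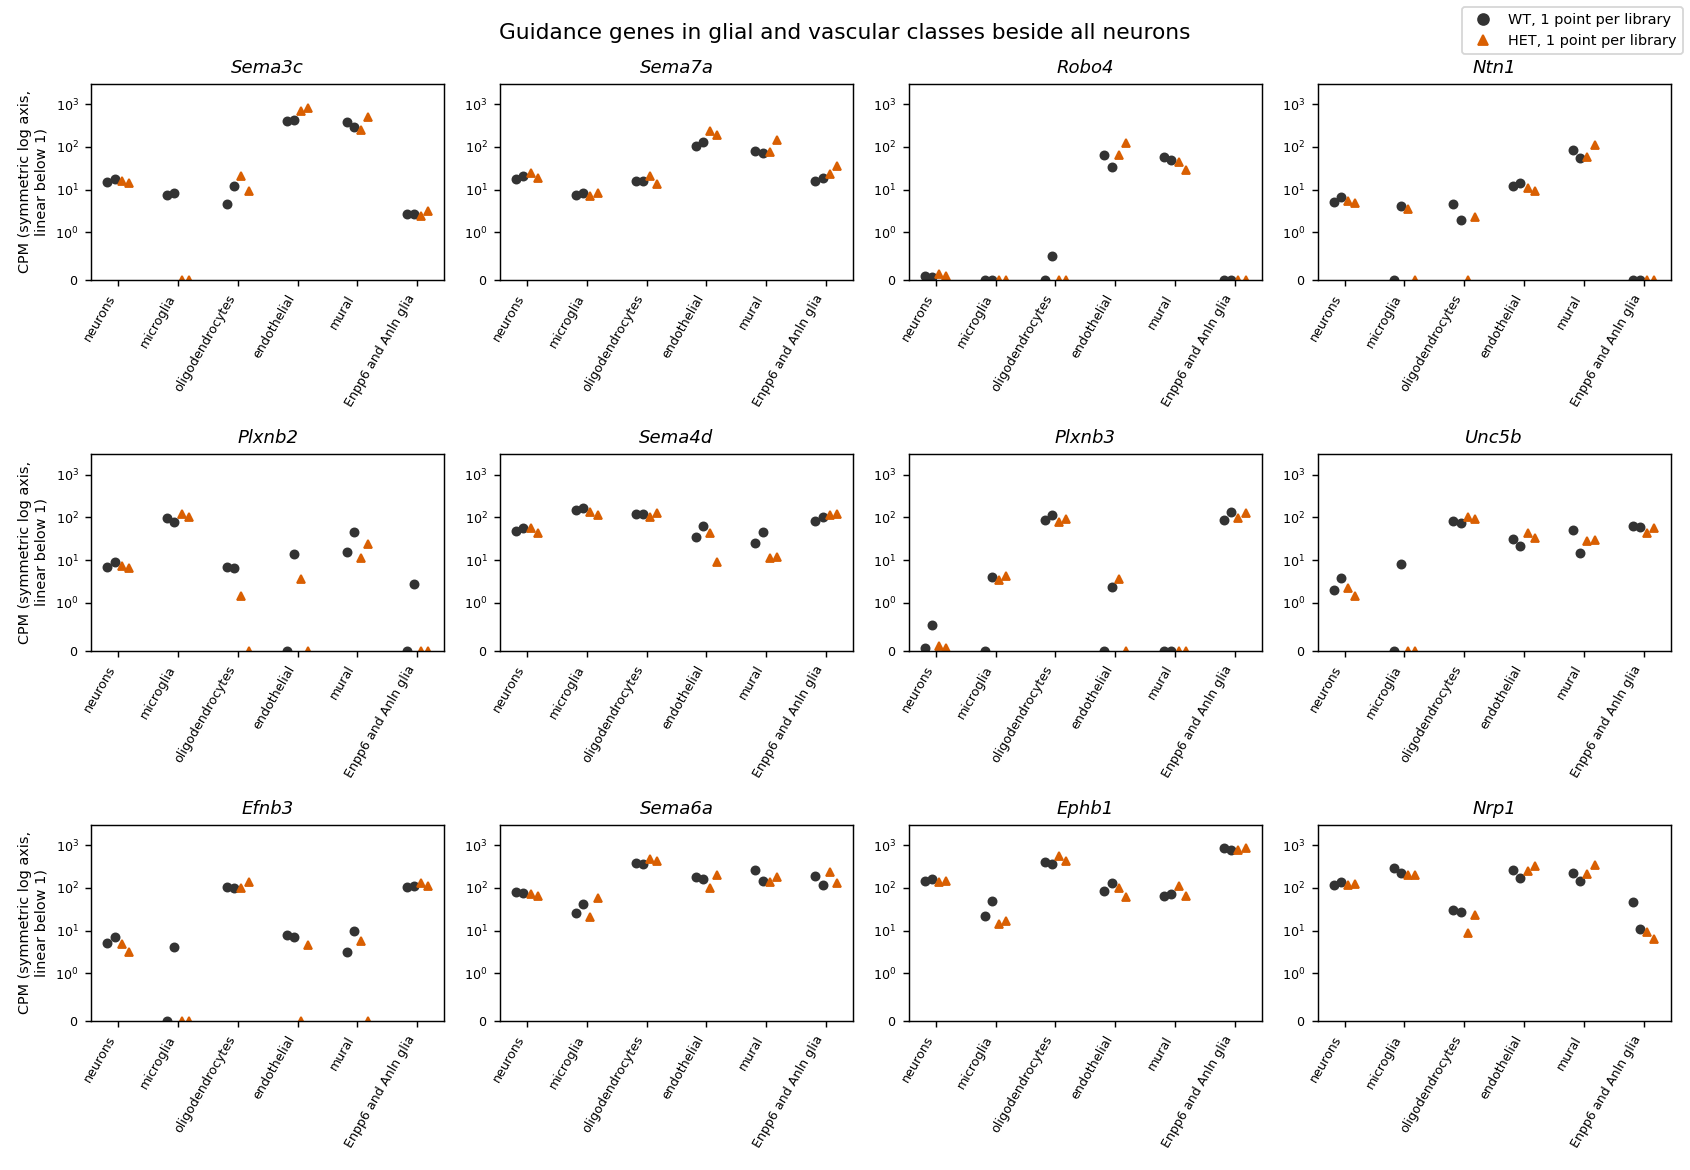
CPM of 12 guidance genes in neurons and in 5 glial and vascular classes, 1 point per library (circles WT, triangles HET), on a symmetric log axis that is linear below 1. Plxnb2 stands out in microglia (78.0 to 122 CPM), Plxnb3, Unc5b and Efnb3 in both oligodendrocyte-lineage groups, and Sema3c, Sema7a and Robo4 in endothelial and mural cells.

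The genotype contrast asked whether Csf1r heterozygosity altered these genes in any class. UMIs of a class were added up within each library and tested with edgeR, and values below are CPM after TMM scaling. A gene is called where p is under 0.01, the study's threshold, and adjusted p-values run over all genes tested in the class. Of the 70 members, 55 were tested in at least 1 class, and the other 15 were too sparse everywhere. A member could pass the detection limit through 1 genotype alone. The genotypes overlapped for none of the called members, so a lack of overlap adds no support to a call. Counts given below for other settings have no share of all genes called under that setting beside them.

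In broad neuron classes no guidance gene was called. In excitatory neurons 0 of 41 members passed, beside 0.26% of all 7692 genes tested, and 0 by DESeq2. At p under 0.05 there were 3 members, beside 146 of all 7692 genes. The members' median log2 fold change was -0.04, and that of all genes 0.00. Sema5a had the smallest p, at 89.2 and 77.2 CPM in WT against 59.3 and 68.5 in HET (log2 fold change -0.38, SE 0.12), with both HET libraries lower. With the same subtype composition in every library its log2 fold change was 0.015. Nrp2 (-0.31) and Epha3 (-0.30) were next. In inhibitory neurons 0 of 33 members passed, beside 0.122% of genes, and 0 by DESeq2. At p under 0.05 there were 0 members, beside 128 of all 6548 genes. Ntn4 measured 43.7 and 33.7 CPM in the WT libraries against 47.7 and 49.2 in HET (log2 fold change 0.32, SE 0.15). Unc5c (-0.20) and Slit3 (-0.25) followed. Without WT1 the counts became 1 member in excitatory and 2 in inhibitory neurons, Ntn4 (0.53) and Slit3 (-0.47).

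In microglia 3 of 18 members were called, all lower in HET, beside 1.83% of all 3066 genes tested and 1.73% called lower. None of the 3 had an adjusted p under 0.05, nor did any gene of the class (0.0%). Ntng1 measured 181 and 146 CPM in WT against 23.8 and 71.2 in HET (log2 fold change -1.84, SE 0.43, adjusted p = 0.525). Dcc was at 459 and 495 against 57.9 and 222 CPM (-1.80, SE 0.48) and Robo1 at 351 and 308 against 106 and 201 CPM (-1.12, SE 0.32, adjusted p = 0.525 for each). Both HET libraries lay below both WT libraries for each gene, HET1 the lowest. The genotypes did not overlap for 14 of the 18 tested members. The members' median was -0.61, against 0.02 for all genes. None of the 3 was above the pan-neuronal share in microglia. That rule counts the HET libraries too, so a member that is lower in HET is more likely to miss it, and Ntng1 passed the detection limit through WT alone. Of the members above the share, Nrp1, Sema4d, Plxna4 and Plxnb2 were tested and lay from -0.42 to 0.29 with none called. The summed pan-neuronal markers in microglia were at 3722 and 3536 CPM in WT against 1613 and 2991 CPM in HET. Their median share of the neuron level was 27.0 and 29.0% in WT against 13.2 and 27.4% in HET, so HET2 lay within the WT range. Singly, Celf4 (-0.64), Rbfox1 (-0.76), Syt1 (-0.64) and Snap25 were lower in both HET libraries than in both WT libraries. Of the markers tested only Rbfox3 (-0.40) overlapped between genotypes, at 100 and 91.6 CPM in WT against 34.1 and 117 CPM in HET. Snap25, a synaptic vesicle fusion protein, was called lower at -0.96 (SE 0.27, adjusted p = 0.525). After the neuronal share was subtracted 1 member, Dcc, was called, with 23 and 33 UMIs left in WT and 0 in both HET libraries. Counts that fell below 0 were set to 0, so these zeros are not a measured absence. Before subtraction Dcc had 17 and 53 UMIs in HET. Leaving out WT1 left 1 call and leaving out HET2 gave 11. Ntng1 was not called without WT1 (-1.63), Dcc not without WT2 (-1.74) and Robo1 not without WT1 (-0.99), WT2 (-1.21) or HET1 (-0.73).

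Oligodendrocytes gave no call among 20 members, beside 0.744% of 3224 genes, and 1 by DESeq2. At p under 0.05 there was 1 member, beside 172 of all 3224 genes. Slit3 measured 167 and 90.5 CPM in WT against 60.1 and 73.7 in HET (log2 fold change -0.87, SE 0.35, adjusted p = 0.912). Ntng1 (-1.37) and Robo1 (-0.53) came next. The median of the members was -0.34 and that of all genes 0.00. Summed pan-neuronal markers reached 3880 and 2279 CPM in the WT libraries against 1567 and 2147 in the HET libraries. Without WT2, the library with most of the oligodendrocytes, 7 members were called, Ntng1 (-1.98) and Slit3 (-1.29) among them.

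Endothelial cells showed the most changes. There 8 of 28 members were called, all lower in HET, beside 4.67% of 5328 genes called and 3.1% called lower. Of these Ntng1 and Epha7 passed the adjustment over all genes, as did 0.563% of genes. Ntng1 measured 218 and 236 CPM in WT against 83.2 and 52.7 in HET (log2 fold change -1.71, SE 0.30, adjusted p = 0.0133), and Epha7 at 230 and 233 against 75.98 and 79.1 CPM (-1.58, SE 0.28, adjusted p = 0.0133). Epha3 (-1.95), Nrp2 (-1.36), Dcc (-1.22), Epha6 (-1.15), Epha5 (-1.01) and Robo2 (-0.83) had adjusted p-values of 0.0846 to 0.202. The genotypes did not overlap for 18 of the 28 tested members. For all 8 called genes both HET libraries lay below both WT libraries. These are receptors and a netrin-G that neurons express, and none of the 8 was above the pan-neuronal share. That rule counts the HET libraries too, so a fall in HET itself makes a member more likely to miss it. Epha3 and Nrp2 passed the detection limit through WT alone. The 7 tested members above the share lay from -0.38 to 0.78 with a median of 0.29, 5 higher and 2 lower in HET, and none was called. Robo4 (0.78), Sema3c (0.73) and Sema7a (0.73) were among the higher ones. The pan-neuronal markers themselves lay from -0.87 to -0.11, and Rbfox3, a neuronal splicing factor, was called lower at -0.86 (SE 0.26, adjusted p = 0.176). The summed endothelial markers were at 8550 and 6650 CPM in WT against 10863 and 13313 CPM in HET. After the neuronal share was subtracted, Epha7 alone was called, with 37 and 10 UMIs in WT and 0 in both HET libraries. Counts below 0 were set to 0 here too, and before subtraction Epha7 had 21 and 18 UMIs in HET. The part of neuronal RNA and of class purity in the remaining values was not tested. Ntng1, Epha7 and Epha3 were called whichever library was left out. The calls of Dcc (-0.89), Epha6 (-0.60) and Nrp2 (-1.39) ended without WT1, that of Epha5 (-0.82) without WT2, that of Nrp2 also without HET1 (-0.95), and that of Robo2 without WT1 (-0.95), WT2 (-0.65) or HET2 (-0.74). The count of calls was 15 without HET1 and 5 without WT2. With high doublet scores removed 3 members were called, Epha7 (-2.27) and Epha6 (-1.80) among them, while Ntng1 (-1.29), Dcc (-1.36), Epha5 (-1.43) and Robo2 (-0.86) were not.

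**Figure D4:**
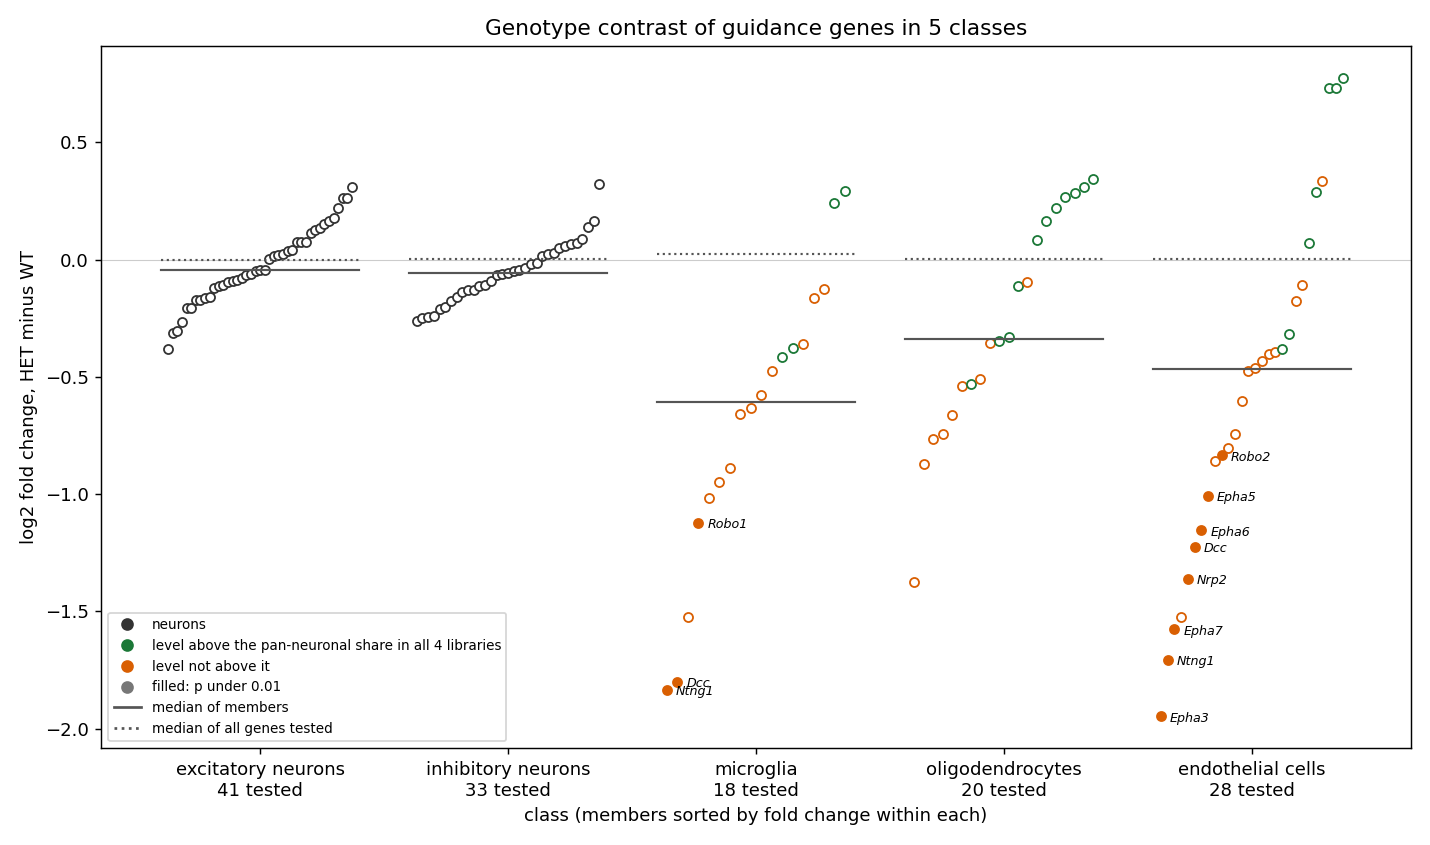
Log2 fold change (HET minus WT, 2 libraries each) of every tested member in 5 classes, sorted within each class; filled points passed p under 0.01, green and orange points are members above and not above the pan-neuronal share (a grouping that uses the HET libraries as well), and solid and dotted lines are the medians of the members and of all genes. Neuron points lie from -0.38 to 0.32, and the called members in microglia and endothelial cells are all lower in HET.

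Mural cells gave 1 call of 31, beside 0.624% of genes, again Ntng1 (201 and 344 against 29.4 and 73.0 CPM, log2 fold change -2.37, SE 0.44, adjusted p = 0.191). Ntng1 was not above the pan-neuronal share in mural cells, and after the neuronal share was subtracted 0 of 26 members were called there. The Enpp6 and Anln glia gave 1 call of 24, beside 0.574%, Slit2 (-2.15, SE 0.55, adjusted p = 0.959). In thalamic relay neurons, where Ntng1 was highest, WT brains had 3703 ± 107 and HET brains 3833 ± 456 CPM (SD, n = 2 each), a log2 fold change of 0.05 (SE 0.13). Over the 35 neuron subtypes Ntng1 was lower in HET in 17 and higher in 18. Epha7 was lower in 28 of 35 with 1 call and a median of -0.12, and Slit3 in 28 of 35 with none and a median of -0.10.

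The other genes of the pathways, a list of 75 co-receptors and intracellular effectors such as Dscam, Nrcam, Srgap and Pak genes, had 0 calls in excitatory neurons (62 tested), inhibitory neurons (60), microglia (37) and oligodendrocytes (44). In endothelial cells 3 of 48 were called, all lower, beside 4.67% of all genes called and 3.1% called lower, among them Dscaml1, an adhesion molecule related to Dscam (-1.36, SE 0.40), and Pak3, a kinase downstream of Rac (-0.92, SE 0.28). Their median there was -0.20, and from -0.04 to 0.02 in the other 4 classes.

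Within neuron subtypes the contrast was fitted separately for each of the 35, since the make-up of a broad class differs between brains. Over 1270 tests of a member in a subtype 37 were called (2.91%), 29 lower and 8 higher in HET, beside 0.648% of all 258428 tests of any gene (0.47% lower). A member is tested in several subtypes of the same 4 brains, so these tests are not independent. The calls fell on 24 members and 20 subtypes. DESeq2 gave 22, and without WT1 or WT2 the count was 62 or 69. Dcc was called lower in 4 subtypes, Unc5c and Unc5d in 3 each and Ntng1, Robo1 and Sema6a in 2 each. After adjustment 2 calls remained, beside 0.0128% of all tests.

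The largest group was in Npnt and Dpp4 excitatory neurons (96, 82, 123 and 207 nuclei), where 6 of 38 members were called beside 1.83% of genes, and 2 after adjustment beside 0.328%. Epha3, the ephrin-A receptor, fell from 139 and 92.2 CPM in WT to 31.7 and 36.5 CPM in HET (log2 fold change -1.77, SE 0.24, adjusted p = 0.000955). Unc5d, the netrin receptor of layer 4, fell from 1174 and 1020 to 655 and 610 CPM (-0.80, SE 0.16, adjusted p = 0.0288). These were the 2 adjusted calls. Unc5c (-0.71, SE 0.16, adjusted p = 0.0765), Dcc (-0.93, SE 0.22, adjusted p = 0.0975) and Nrp1 (-1.11, SE 0.34, adjusted p = 0.371) were lower and Robo3 (0.65, SE 0.20, adjusted p = 0.371) was higher. The genotypes did not overlap in 20 of the 38 tested members, all 6 called ones included. Without HET2 Dcc was not called (-0.58). The subtype's layer 4 markers moved too: the 6 markers summed to 380 and 365 CPM in WT against 173 and 77.8 CPM in HET. Of these Rorb went from 332 and 329 to 122 and 43.2 CPM, Rspo1 from 16.5 and 9.96 to 32.5 and 25.9 CPM, and Endou had 0 UMIs in all libraries but WT1. Tmem215 was also higher in HET, at 1.498 and 1.992 against 5.983 and 4.654 CPM, while Whrn and Scnn1a were lower in both HET libraries. The shift was not limited to layer 4 markers. The 6 layer 6 corticothalamic markers summed to 887 and 811 CPM in WT against 574 and 669 CPM in HET. The 7 upper layer markers stayed at 452 to 519 CPM and the 6 layer 5 intratelencephalic markers at 105 to 122 CPM. Whether the subtype holds different neurons in the HET brains was not tested.

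**Figure D5:**
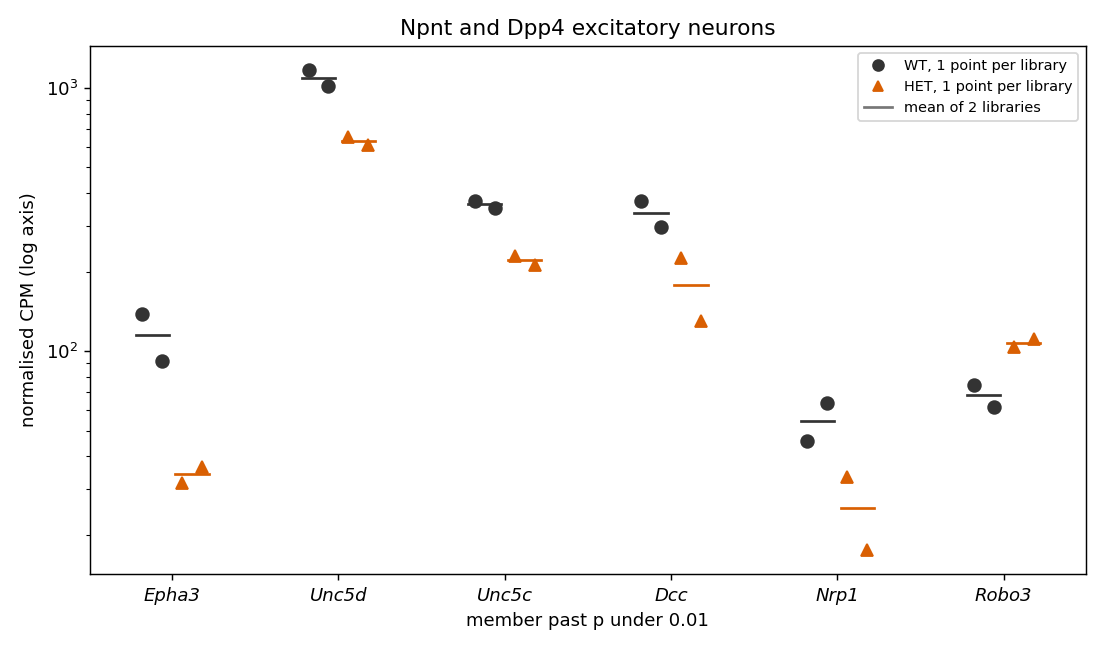
Normalised CPM of the 6 guidance genes called in Npnt and Dpp4 excitatory neurons, 1 point per library (circles WT, triangles HET) with the mean of 2 libraries as a line, on a log axis. For Epha3, Unc5d, Unc5c, Dcc and Nrp1 both triangles lie below both circles, and for Robo3 above.

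In Pde1c and Lgr5 inhibitory neurons (1.71% of genes called), whose leading genes include Th and Pax6, Ntng1 fell from 95.6 and 132 CPM to 27.3 and 38.2 CPM (log2 fold change -1.92, SE 0.35, adjusted p = 0.147) and Unc5c from 191 and 343 to 85.4 and 121 CPM (-1.47, SE 0.31, adjusted p = 0.307). Without WT2 the Unc5c call was lost (-0.97). Pbx3 and Cpa6 inhibitory neurons (1.72% called) had tight values. Unc5c was at 196 and 194 CPM in WT against 101 and 102 in HET (-0.94, SE 0.14, adjusted p = 0.165), and Ephb1 at 57.7 and 54.4 against 17.9 and 17.7 CPM (-1.64, SE 0.24, adjusted p = 0.165). In layer 5 extratelencephalic neurons (1.1% called) Slit1 was at 21.98 and 26.1 against 7.93 and 8.13 CPM (-1.58, SE 0.31, adjusted p = 0.155). Dcc in Six3 and Isl1 inhibitory neurons (0.766% called) was at 103 and 172 against 17.2 and 56.3 CPM (-1.86, SE 0.46, adjusted p = 0.531), a call lost without HET1 (-1.23). The genotypes did not overlap in any of these 6 cases, and none passed the adjustment. Six3 and Isl1 neurons were the lowest of the 40 classes for Dcc, at 87.7 CPM against a median of 1057. The means over all neurons were 446 CPM for Ntng1, 704 for Unc5c, 146 for Ephb1, 67.1 for Slit1 and 1227 for Dcc. All 6 calls thus lay where the gene was below its neuron mean. The part of RNA from other cells in these values was not tested.

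Of the 8 calls that were higher in HET, Robo3 in Npnt and Dpp4 neurons was 1, and the other 7 lay in 6 further subtypes, with no adjusted p under 0.5. In CA1 pyramidal neurons (1.12% of genes called) the ephrin Efna5 was at 114 and 101 CPM in WT against 180 and 156 in HET (log2 fold change 0.63, SE 0.18), and the semaphorin receptor Nrp1 at 307 and 309 against 452 and 417 CPM (0.50, SE 0.16). Epha5, an ephrin-A receptor, was higher in dentate granule neurons (0.71, SE 0.22, 0.588% called), and Nrp2 in striatal projection neurons (0.70, SE 0.22, 0.806% called). Sema3e rose in layer 6b neurons (0.52, SE 0.16, 0.417% called), Ephb2 in layer 5 intratelencephalic neurons (0.79, SE 0.25, 0.664% called) and Sema3a in Ano1 and Prdm16 inhibitory neurons (1.14, SE 0.27, 0.749% called). Sema3a was called lower in Cobll1 and Rxfp1 excitatory neurons (-1.21, SE 0.38, 0.572% called). These higher calls, the Sema3a pair and Nrp1 in Npnt and Dpp4 neurons were named after their values were seen.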

How the data were processed

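Nuclei were prepared without detergent from perfused brains, depleted of myelin and sequenced as Chromium 3′ v3.1 libraries; the authors counted UMIs with Cell Ranger 5.0 on mm10 per the labels, and whether introns were counted is not given in the sources used here. The deposited values are raw UMI counts per gene and nucleus, with no normalization.

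The members and gene lists were chosen with earlier results of these data known, and cluster naming rules were set after the clusters were seen. Nuclei were filtered as in the study and clustered with scanpy 1.11.5 and leidenalg 0.10.2 (Python 3.11.15, 3000 variable genes without the members, effectors, mitochondrial and ribosomal genes, Xist, Tsix and Csf1r, scaled within each library, 30 principal components, 20 neighbours, resolution 1), giving 51 clusters. A class needed at least 3 of its markers in at least 10% of nuclei at 2 times the level elsewhere. Of the clusters, 6 with over 50% high Scrublet scores and 1 of low UMIs, led by astrocyte genes, were left out.

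UMIs were added up by library and class and tested with edgeR (quasi-likelihood, TMM, two-sided) in R, keeping genes that reached 10 counts and were detected in 10% of WT or of HET nuclei. Benjamini-Hochberg adjustment ran over all genes of a class. On simulated data 98.5 to 100% of 200 genes changed 4-fold were recovered at p under 0.01 in the 5 classes. The changed genes were drawn from those with at least 200 UMIs in the class, with 1 common dispersion and no detection limit. Recovery of sparser members or of smaller changes was therefore not measured. Members named for their levels were drawn from the 3 most class-specific of each class and the partners of known pairs, and those named for the contrast were every member called in the 5 classes or the 3 smallest p-values, and in subtypes every adjusted call and the 10 smallest p-values. Alternatives were the likelihood-ratio test, DESeq2, RLE scaling, no detection limit, at least 1000 UMIs, doublet removal, resolution 2, a replicate block, each library left out, neuronal RNA subtracted and equal subtype composition. Replicate numbers did not pair the libraries: WT and HET differences between numbers correlated at 0.014 to 0.08 over genes in 4 classes and at -0.264 in oligodendrocytes. Positions are from GENCODE M21. Intervals of counting error were not computed, and depth limits low genes most. Standard errors were derived from the fold change and the F statistic. The levels of 1 neuron subtype and the values of 1 effector gene are not reported here.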

Additional observations from a re-analysis of the deposited data

Results flagged for a closer look

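In 5 members a call in 1 class and a call in another ran in opposite directions, with the genotypes not overlapping in either. The difference between the classes was not tested, and none of these calls passed the adjustment over all genes.

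Sema3e, the Plxnd1 ligand, was higher in HET layer 6b neurons (log2 fold change 0.52) and lower in HET Ano1 and Prdm16 inhibitory neurons (-2.53), a gap of 3.05. That lower call rests on few counts, 17 and 17 UMIs in WT against 1 and 5 in HET. Sema3a was higher in Ano1 and Prdm16 inhibitory neurons (1.14) and lower in Cobll1 and Rxfp1 excitatory neurons (-1.21), a gap of 2.35. Nrp2 was higher in striatal projection neurons (0.70) and lower in endothelial cells (-1.36), a gap of 2.06. Epha5 was higher in dentate granule neurons (0.71) and lower in endothelial cells (-1.01), a gap of 1.72. Neither Nrp2 nor Epha5 was above the pan-neuronal share in endothelial cells, and Nrp2 had 46 and 29 UMIs there in WT against 5 and 8 in HET. Nrp1 was higher in CA1 pyramidal neurons (0.50) and lower in Npnt and Dpp4 excitatory neurons (-1.11), a gap of 1.61.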

How the results depend on the processing

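The number of class-restricted members was 41 to 46 under every alternative but the limit of 5 times the median, and 41 to 44 with 1 library left out. Of the 42, 31 kept a highest class of the same name at resolution 2, where the 52 classes differ and some are renamed. Under the other alternatives 38 to 42 kept it. Leaving out each library gave 0 to 1 called members in excitatory neurons, 0 to 2 in inhibitory neurons, 1 to 11 in microglia, 0 to 7 in oligodendrocytes, 5 to 15 in endothelial cells and 30 to 69 calls over neuron subtypes, 3 to 8 effector calls, and a Csf1r log2 fold change of -0.70 to -0.56. DESeq2 gave 22 calls over subtypes and 1 member in oligodendrocytes. The likelihood-ratio test gave 5 members in microglia. With no detection limit, 1 member was called in oligodendrocytes and 7 effectors were called. Doublet removal left 3 members in endothelial cells and gave 2 in oligodendrocytes. With neuronal RNA subtracted and counts below 0 set to 0, 1 member each was called in microglia, oligodendrocytes and endothelial cells and 0 in mural cells. Csf1r was then at -0.80 and past the threshold. Slit3 in inhibitory neurons turned to 0.036 without WT2 and was -0.47 without WT1, and Sema5a in excitatory neurons to 0.015 with equal subtype composition. For these changes the cause was not tested. The share of all genes called under each alternative is not given here. A change in these counts can therefore not be told apart from a change in the number of calls over all genes. With the replicate number as a replicate block 47 subtype calls were made in place of 37, and the counts in the 5 classes were 0, 0, 3, 0 and 8. The crossed pairing, added after seeing the data, gave 5 members in oligodendrocytes. With 2 mice per genotype and 79 to 286 endothelial nuclei per library, low members could not be measured finely.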
